A study of Homo sapiens with 16 samples.

Results

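Glypicans and syndecans are the 2 families of cell-surface heparan sulfate proteoglycans. Their 10 human genes, GPC1 to GPC6 and SDC1 to SDC4, were followed here by name among the 57820 genes of the count and FPKM table, over all 16 RNA-seq libraries of HEK-293 cells, a line from human embryonic kidney. The families were selected on the measured rise of GPC3 in both cell lines of the series, so the changes of GPC3 with time are given as a description, with no test. GPC3 is left out of the counts of members called over time, which therefore refer to the 9 other genes.

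All libraries came from Flp-In T-REx HEK-293 cells, in which a gene placed at a fixed integration site is switched on by doxycycline. Cells of the first line made F-Cherry-HCF-2Fn3nc*, a Flag- and Cherry-tagged HCF-2 with a tryptophan-to-alanine change in its Fn3n segment and a valine-to-glutamate change in its Fn3c segment. Cells of the other line made the same fusion with wild-type HCF-2, F-Cherry-HCF-2WT. HCF-2, encoded by HCFC2, is a relative of the transcriptional co-regulator HCF-1. They are called Fn3nc* and WT cells below. Both lines were grown in serum free of tetracycline, were induced with 1 μg/ml doxycycline by the labels (the design text of the series writes 1 μl/ml), and were collected on days 1, 2, 4 and 6 of induction, with 2 libraries in each of the 8 groups. No uninduced library and no library of cells without the transgene was analysed here. The day 1 libraries are therefore the earliest point and not a baseline before induction. Replicates are described only as duplicate inductions, and since nothing says that they were separate cultures, the p-values may cover technical spread alone.

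A glypican is a globular core protein held to the outer leaflet of the membrane by a glycosylphosphatidylinositol anchor, with its heparan sulfate chains close to the membrane. A syndecan crosses the membrane, carries its chains near its outer end, and has a short cytoplasmic tail that binds PDZ proteins and cytoskeletal adaptors. The sulfated chains bind FGF, Wnt, Hedgehog, BMP, VEGF and other ligands, present them to their receptors or keep them away, and are trimmed by sulfatases and heparanase after they reach the surface. GPC3 is an oncofetal protein. It is abundant in the embryonic kidney and liver, its loss causes the Simpson-Golabi-Behmel overgrowth syndrome, and it restrains Hedgehog signalling by competing for the ligand.

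The 10 genes lie on 6 autosomes and the X chromosome (GRCh37, with a later GENCODE release than the one behind the files). GPC3 spans chrX:132669773-133121127 on the minus strand, and GPC4 lies beside it at chrX:132434131-132549517 on the same strand, 120 kb away. GPC5 (chr13:92050875-93525935) and GPC6 (chr13:93879060-95060274) form another pair of neighbours, 353 kb apart on the plus strand. GPC1 lies at chr2:241375080-241407493 on the plus strand, GPC2 at chr7:99767229-99775004 on the minus strand, SDC1 at chr2:20400558-20425194 on the minus strand, SDC3 at chr1:31342313-31381605 on the minus strand and SDC4 at chr20:43953928-43977064 on the minus strand. Introns of GPC1, GPC3, GPC5 and GPC6 hold small genes on the opposite strand. Of those in the table, RPS24P19 within GPC3 had 86 to 239 counts per library and no other had more than 13. The strand setting of the counting is not given in the sources.

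Of the 10 members, 8 had a promoter in the RefSeq table (GRCh38.p14). The 250 bases before the start of 2 of them are printed because these are the genes on which the results turn: SDC4 moved in opposite directions in the cell lines, and GPC6 rose in both. Capitals mark matches, on either strand, to the GC box (GGGCGG), to TATAAA and to the kappa B consensus. No marked matches share a base, though in SDC4 the kappa B match is directly followed by a GC box.
SDC4, chr20:45348425-45348674, minus strand: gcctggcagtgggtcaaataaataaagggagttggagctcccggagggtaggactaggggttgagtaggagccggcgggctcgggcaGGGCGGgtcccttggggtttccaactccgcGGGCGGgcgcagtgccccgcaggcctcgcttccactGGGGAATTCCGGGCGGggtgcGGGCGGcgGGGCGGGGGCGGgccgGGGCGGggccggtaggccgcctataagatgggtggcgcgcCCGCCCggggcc
GPC6, chr13:93226557-93226806, plus strand: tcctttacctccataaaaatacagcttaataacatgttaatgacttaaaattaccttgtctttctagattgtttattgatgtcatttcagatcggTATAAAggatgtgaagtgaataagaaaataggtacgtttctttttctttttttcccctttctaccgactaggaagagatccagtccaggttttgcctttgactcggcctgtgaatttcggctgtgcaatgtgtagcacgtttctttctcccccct
The SDC4 window held 8 GC boxes and 1 kappa B match, and no TATAAA. The GPC6 window held 1 TATAAA, 155 bases before the start, and neither of the others. Of the 35116 promoters in the table, 42.6% held a GC box in a window of the same length, 10.7% a TATAAA and 9.96% a kappa B match. SDC3 had 5 GC boxes, GPC1 4, GPC2 3, GPC4 and GPC5 2 each, and each of the SDC1 promoters 1.

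Libraries held 20270033 to 31006448 expected counts, and mitochondrially encoded genes took 0.424 to 1.12% of them. A gene was tested if its FPKM, a level per length and depth, was above 1 in at least 1 library, which 18925 genes and all 10 members met, GPC5 only through a WT library of day 6. HCFC2, whose counts join the endogenous gene and the transgene, stood at 335 to 568 FPKM in all 16 libraries. Its level was not steady. The mean was 339, 512, 564 and 544 FPKM on days 1, 2, 4 and 6 in Fn3nc* cells. In WT cells it was 342, 352, 412 and 475 FPKM on the same days. Whether this level bears on the changes of the members was not tested. KRT8 (69.8 to 138 FPKM), KRT18, CDH2, EPCAM and NEFL, known in HEK-293 cells, were present in every library, whereas PAX2 and NEFM did not exceed 1.07 FPKM, and the hepatocyte genes ALB and AFP did not exceed 0.91 FPKM. The Fn3nc* libraries of day 1 stood apart: on the first 2 principal components of log2 CPM (500 genes) they lay 21.3 units from the nearest other library of their line, and 1.27 units from each other. They also differed less from each other than any other pair did (chi-square per gene of 2.57, against 6.08 to 17.6). The summed FPKM of 8 blood cell markers was 9.83 to 10.6 in this pair, against 2.90 to 5.10 in the later Fn3nc* libraries. Over all libraries HBA1 lay at 1.25 to 7.25 FPKM, and CD14 reached 1.98 and ITGAM 1.05 FPKM. PTPRC stayed at 0.40 FPKM or less and CD3E at 0.17 FPKM or less. HBA1, CD14 and ITGAM were the 3 tested, and all 3 were called lower on day 6 than on day 1 in Fn3nc* cells (background 15.4%). Every Fn3nc* comparison with day 1 rests on the day 1 pair of that line. The part of that pair in those results was not tested. Comparisons of day 6 with day 2 are therefore given beside them.

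SDC2, a syndecan of mesenchymal and neural cells, was the most abundant member by FPKM in every group, at 29.6 to 49.0 in Fn3nc* cells and 34.1 to 44.1 in WT cells. SDC4, the widely expressed syndecan of focal adhesions, SDC1, the main syndecan of epithelia, and GPC4, a glypican of kidney and brain, followed in most groups, at 7.03 to 21.4 FPKM over all libraries. GPC1, GPC6 and SDC3 lay between 2.09 and 9.11 FPKM. GPC2, a glypican of developing neurons, was above 1 FPKM in 9 of 16 libraries and reached 1.93 FPKM, and GPC5, a glypican of kidney and brain, reached 1.04 FPKM with 19 to 48 counts per library. GPC3 changed its place most. In WT cells its mean FPKM was 5.37, 8.16, 15.1 and 25.2 on days 1, 2, 4 and 6, and it moved up to rank behind SDC2 alone. In Fn3nc* cells its means were 2.36, 5.97, 6.53 and 7.41 FPKM on the same days, behind SDC2, SDC1, GPC4 and SDC4 on day 6. The FPKM of SDC4 (8.16 and 8.46) and that of GPC4 (8.45 and 9.45) overlapped in those day 6 Fn3nc* libraries, so their order is not resolved.

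**Figure D1:**
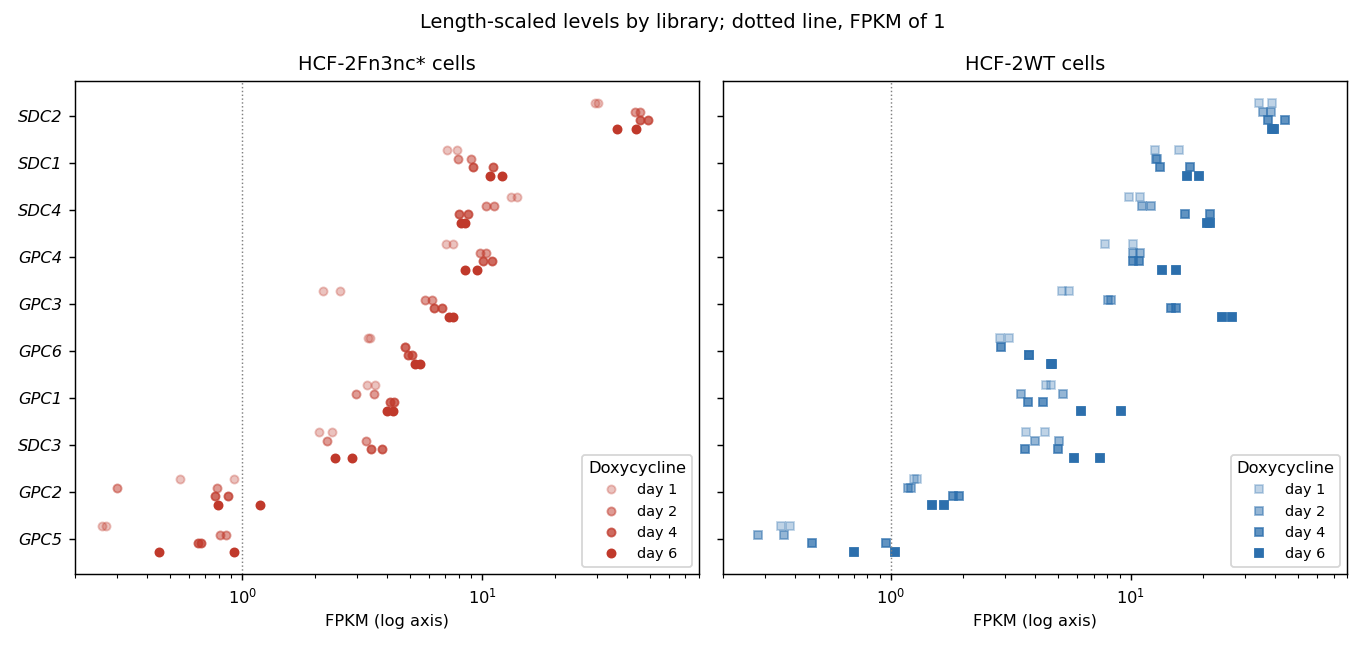
FPKM of the 10 members in each library on a log axis, with HCF-2Fn3nc* cells on the left and HCF-2WT cells on the right, darker points for later days and a dotted line at 1 FPKM. SDC2 lies furthest right in every group, GPC2 and GPC5 lie around or below the line, and GPC3 spreads from 5.19 to 26.4 FPKM in WT cells but from 2.16 to 7.52 FPKM in Fn3nc* cells.

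The composition of the glypican pool moved with GPC3. GPC3 held 12.3 and 14.7% of the summed glypican FPKM on day 1 in Fn3nc* cells, and 25.9 and 27.9% on day 6. In WT cells it held 21.0 and 24.9% on day 1 and 44.7 and 47.7% on day 6. The glypican sum was 28.1 and 26.9 FPKM on day 6 against 17.4 and 17.5 FPKM on day 1 in Fn3nc* cells, and 53.7 and 55.3 FPKM against 22.3 and 24.8 FPKM in WT cells. Within it the GPC3 mean went from 2.36 to 7.41 FPKM in Fn3nc* cells and from 5.37 to 25.2 FPKM in WT cells. Since the rise of GPC3 chose the family, these glypican shares and sums are a description and not a separate result. For the syndecans, SDC4 held 14.5 and 12.3% of the sum on day 6, against 24.5 and 26.3% on day 1, in Fn3nc* cells. In WT cells the share of SDC4 was 24.5 and 25.1% on day 6, against 15.1 and 16.8% on day 1.

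GPC3 itself had 4.38 and 3.97 CPM on day 1 in Fn3nc* cells, where CPM is the count scaled to library size with TMM factors. It had 11.4 and 11.0 CPM on day 2, 11.8 and 12.4 CPM on day 4 and then 12.8 and 13.5 CPM on day 6. Most of its increase in this line fell between days 1 and 2, a step that rests on the day 1 pair that stood apart. The log2 fold change was 1.40 (SE 0.11) for day 2 over day 1 and 0.21 (SE 0.10) for day 6 over day 2. In these bulk samples fewer or more cells of a kind and less or more RNA per cell cannot be told apart. In WT cells GPC3 had 11.2 and 11.5 CPM on day 1, 16.7 and 16.4 CPM on day 2, 32.6 and 27.6 CPM on day 4, and 50.1 and 55.8 CPM on day 6. There it was higher on each later day than on the one before, in every library, with 0.55 (SE 0.12) for day 2 over day 1 and 1.65 (SE 0.11) for day 6 over day 2. For day 6 over day 1 the log2 fold change was 1.62 (SE 0.11, 3.07-fold) in Fn3nc* cells and 2.20 (SE 0.11, 4.60-fold) in WT cells. These values chose the family and are a description.

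**Figure D2:**
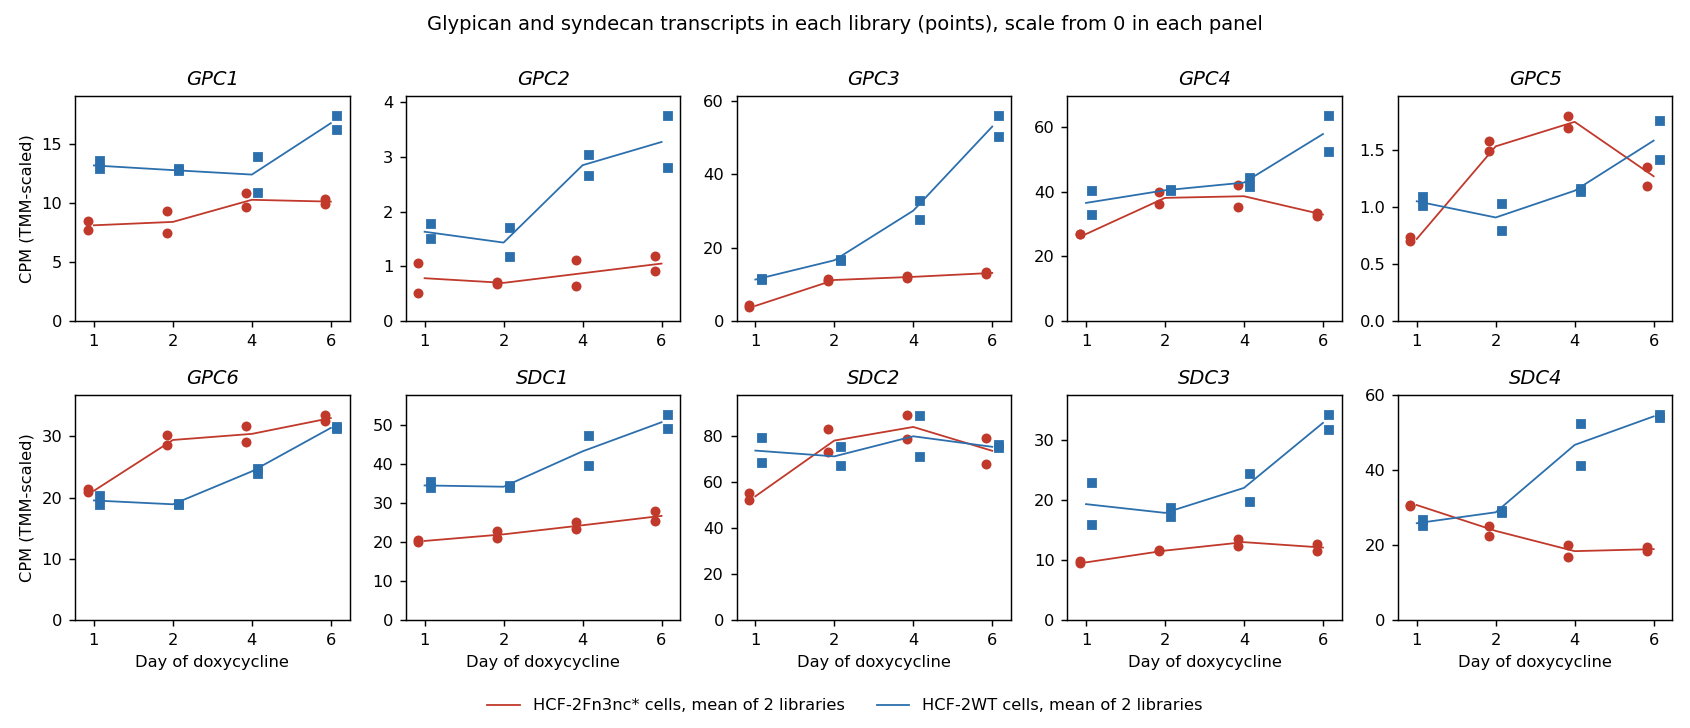
CPM of each member by day of doxycycline, 1 panel per gene with the axis from 0. Points are libraries and lines join the means of 2 libraries, red circles for HCF-2Fn3nc* cells and blue squares for HCF-2WT cells. GPC3 rises more slowly after day 2 in Fn3nc* cells and climbs to 50.1 and 55.8 CPM in WT cells, and the SDC4 lines cross after day 1.

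Between the lines, GPC3 was lower in Fn3nc* than in WT cells on every day. The family was chosen on the rise within each line and not on this difference. The same GPC3 values enter both, so these p-values are not independent of the choice. The log2 difference was -1.44 (SE 0.11, adjusted p = 7.18e-08) on day 1, -0.56 (SE 0.10, adjusted p = 6.23e-04) on day 2, -1.31 (SE 0.10, adjusted p = 1.33e-07) on day 4 and -2.01 (SE 0.10, adjusted p = 1.36e-09) on day 6, by edgeR's quasi-likelihood test over 16 libraries with Benjamini-Hochberg adjustment. No Fn3nc* library reached the level of a WT library of the same day. The day 2 difference was -0.40 on the log2(FPKM + 1) scale and so short of the threshold of 0.5 used for a call.

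SDC4 moved in opposite directions in the lines. In Fn3nc* cells it had 30.6 and 30.8 CPM on day 1, 25.2 and 22.4 CPM on day 2, 16.8 and 20.1 CPM on day 4, and 18.4 and 19.5 CPM on day 6. In WT cells it had 25.1 and 26.7 CPM on day 1, 28.6 and 29.0 CPM on day 2, 52.3 and 41.1 CPM on day 4, and 54.6 and 54.0 CPM on day 6. All later Fn3nc* libraries were below both day 1 libraries of that line, and all later WT libraries above theirs. By day 6 SDC4 had fallen in Fn3nc* cells (log2 fold change -0.73, SE 0.10, adjusted p = 1.49e-04) and risen in WT cells (1.05, SE 0.11, adjusted p = 5.66e-05).

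The test of the difference between these responses gave -1.76 (SE 0.16, adjusted p = 7.63e-07), and SDC4 was the only 1 of the 9 members called there, where 36.1% of all genes were called (20.0% lower). With day 2 in place of day 1 as the earlier point, which leaves the day 1 Fn3nc* pair out of the contrast, the difference was -1.25 (SE 0.16, adjusted p = 6.07e-05). That contrast, added after the data were seen, called 5 of 9 members, all lower in the Fn3nc* response (background 24.3%, 13.9% lower and 10.3% higher): SDC4, GPC6 (-0.56, SE 0.11), GPC4 (-0.72, SE 0.16), SDC3 (-0.82, SE 0.21) and GPC5 (-1.08, SE 0.37). The count therefore depends on which early day serves as the reference. The GPC5 call there lies near the threshold (edgeR, adjusted p = 0.0447). GPC5 was tested at all only through a WT library of day 6, which enters this contrast. Within Fn3nc* cells the SDC4 change from day 2 to day 6 was -0.34 (SE 0.10) and was not called (adjusted p = 0.0665).

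**Figure D3:**
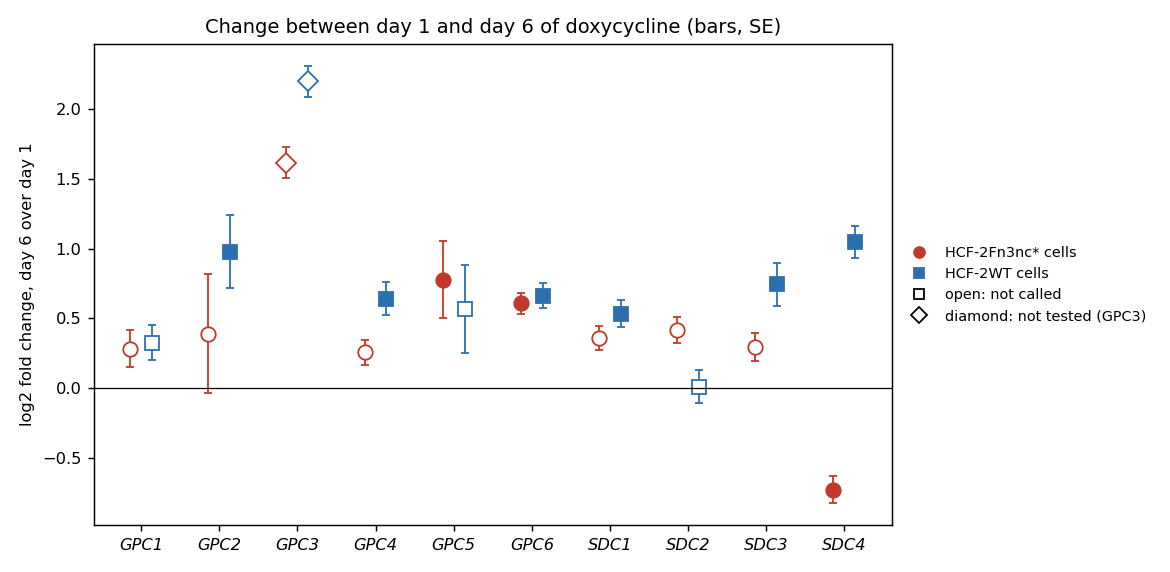
Log2 fold change of each member for day 6 over day 1 with its SE, red circles for HCF-2Fn3nc* cells and blue squares for HCF-2WT cells, filled where called and open where not, with diamonds for GPC3, which was not tested. SDC4 lies at -0.73 in Fn3nc* and 1.05 in WT cells, while the 2 GPC6 points lie close together at 0.61 and 0.66.

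In WT cells 6 of the 9 other members rose by day 6 and 0 fell, where 13.2% of all genes rose and 8.04% fell (21.2% called either way). Besides SDC4 these were GPC2 (log2 fold change 0.98, SE 0.26), SDC3, the syndecan of neural cells (0.74, SE 0.15), GPC6 (0.66, SE 0.09), GPC4 (0.64, SE 0.12) and SDC1 (0.53, SE 0.10), with adjusted p from 2.36e-04 to 0.0127. GPC1 had 17.4 and 16.2 CPM on day 6 against 12.9 and 13.6 CPM on day 1 (0.33, adjusted p = 0.0658), and GPC5 0.57 (adjusted p = 0.184). The median over the 9 members was 0.64, against -0.01 over all genes tested. Without WT day 6 replicate 2 the count was 3, as GPC2 (0.76, adjusted p = 0.12), GPC4 (0.50) and SDC1 (0.48) missed a threshold, and without WT day 1 replicate 1 GPC2 and GPC4 missed it. On log2(FPKM + 1), tested by limma, 3 were called, since GPC2 (0.18), SDC1 (0.34) and SDC3 (0.60, adjusted p = 0.067) were not.

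The WT calls came late. On day 2 of WT cells 0 of 9 members were called by edgeR (background 0.301%, 0.0264% higher and 0.275% lower), none had an unadjusted p under 0.05, and DESeq2 and limma also called 0. On day 4, SDC4 alone was called (0.86, SE 0.11, adjusted p = 0.00136), where 7.00% of all genes were called (5.13% higher and 1.87% lower). By edgeR, GPC6 (0.32, adjusted p = 0.041) and SDC1 (0.33, adjusted p = 0.0468) passed the p threshold on day 4 but not that of size. GPC2, at 0.81 on day 4, missed the p threshold (adjusted p = 0.0661). In all, 4 of 9 members had an unadjusted p under 0.05 on that day. For day 6 over day 2 in WT cells, 5 of 9 were called, all higher (background 20.8%, 13.1% higher and 7.65% lower): GPC2, SDC4, SDC3, GPC6 and SDC1, with log2 fold changes of 1.15, 0.89, 0.85, 0.70 and 0.54. Without WT day 6 replicate 2 that count was 3.

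SDC3 illustrates the spread. It had 31.6 and 34.2 CPM on day 6 in WT cells, against 15.9 and 22.8 CPM on day 1, so that the day 1 libraries differed between themselves by more than the day 6 libraries. GPC4 had 52.3 and 63.4 CPM on day 6 against 32.7 and 40.4 CPM on day 1. SDC1 had 48.8 and 52.4 CPM on day 6 against 33.7 and 35.2 CPM on day 1. In none of these did the days overlap. GPC2, with 72 and 90 counts on day 6 against 34 and 39 on day 1, is the least deeply counted of the members called in this comparison.

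In Fn3nc* cells 3 of the 9 members were called by day 6, against a background of 24.3% (8.89% higher and 15.4% lower): GPC6 rose (0.61, SE 0.07, adjusted p = 9.01e-05), GPC5 rose (0.78, SE 0.28, adjusted p = 0.0423) and SDC4 fell. GPC6 had 33.4 and 32.5 CPM on day 6 against 21.3 and 20.9 CPM on day 1 in Fn3nc* cells, and 31.1 and 31.6 CPM against 18.8 and 20.2 CPM in WT cells. The difference between these GPC6 responses was -0.04 (SE 0.11, adjusted p = 0.815). The timing was unlike, since in Fn3nc* cells GPC6 already stood at 30.2 and 28.6 CPM on day 2, and in WT cells at 18.8 and 19.0 CPM. The GPC5 call rests on 26 and 28 counts against 23 and 22 counts and was lost in 11 of 15 alternatives, among them DESeq2 (adjusted p = 0.22) and the omission of any day 1 or day 6 library of the line.

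On day 2 of Fn3nc* cells, GPC5 (1.06, SE 0.27) and SDC2 (0.51, SE 0.09) were called, 2 of 9 members where 14.9% of all genes were called (4.18% higher and 10.7% lower). SDC2 had 83.1 and 73.3 CPM on day 2 against 55.4 and 52.4 CPM on day 1, a change of 0.47 without Fn3nc* day 1 replicate 2 and 0.43 without Fn3nc* day 2 replicate 1, both short of the threshold. GPC5 was not called on day 2 without Fn3nc* day 1 replicate 1, day 1 replicate 2 or day 2 replicate 1. GPC4 (0.48) and GPC6 (0.46) passed the p threshold on day 2 with adjusted p of 0.00219 and 0.00105 but not that of size. Without Fn3nc* day 2 replicate 2 both passed it, which made the count 4.

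On day 4, GPC5 (1.24, SE 0.26) and SDC2 (0.61, SE 0.09) were higher and SDC4 was lower (-0.77, SE 0.09), 3 of 9 where 23.5% of all genes were called (8.04% higher and 15.4% lower). GPC4 and GPC6, both at 0.49, again lay just under the threshold of size, and the count was 5 without any of Fn3nc* day 2 replicate 2, day 4 replicate 1 or day 6 replicate 1. For day 6 over day 2 in Fn3nc* cells, 0 of 9 members were called by edgeR (background 2.86%, 0.645% higher and 2.22% lower), 3 (GPC4, SDC1 and SDC4) had an unadjusted p under 0.05, and DESeq2 and limma each called 0. SDC1 had 25.4 and 28.0 CPM on day 6, 22.9 and 21.1 CPM on day 2, and 20.1 and 20.5 CPM on day 1. Its day 6 over day 1 value in this line was 0.36 (SE 0.08, adjusted p = 0.0052), under the threshold of size.

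Set side by side on a given day, more members were lower in Fn3nc* than in WT cells. On day 1, 5 of 10 were lower and 0 higher, where 15.5% of all genes were lower and 34.2% were called either way. On day 2, 4 were lower and 2 higher (background 7.57% lower, 9.08% higher and 16.6% in all). On day 4, 5 were lower and 0 higher (12.1% lower, 10.1% higher and 22.2% in all), and on day 6, 7 were lower and 0 higher (16.8% lower, 30.0% in all). The median over the members was -0.62, -0.42, -0.52 and -0.87 on days 1, 2, 4 and 6, and that over all genes tested was between 0.00 and 0.02. Since the same libraries enter the comparisons over time, these counts are not independent of the ones above. They also include GPC3, which is among the lower members on every day and whose values in these libraries chose the family.

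SDC1 and SDC3 were lower in Fn3nc* cells on all 4 days, as was GPC3, whose values chose the family. SDC1 differed by -0.76, -0.63, -0.83 and -0.92 on days 1, 2, 4 and 6 (SE 0.09 each, adjusted p from 1.01e-06 to 1.08e-04), with 25.4 and 28.0 CPM in Fn3nc* cells and 48.8 and 52.4 CPM in WT cells on day 6. Its lowest WT library, at 33.7 CPM, was above its highest Fn3nc* library. SDC3 averaged 9.66 CPM in Fn3nc* and 19.4 CPM in WT cells on day 1 and differed by -0.62, -0.76 and -1.44 on days 2, 4 and 6, with 12.8 and 11.5 CPM in Fn3nc* cells and 31.6 and 34.2 CPM in WT cells on day 6. On day 4 its difference on the log2(FPKM + 1) scale was -0.19 and not called. GPC1, the glypican of skeletal muscle and neurons, was lower on days 1 (-0.70), 2 (-0.61) and 6 (-0.73), but not called on day 4 (-0.28, adjusted p = 0.107). Its day 2 call was lost without Fn3nc* day 2 replicate 1 (-0.45).

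GPC2 was lower on days 1 (-1.05), 4 (-1.72) and 6 (-1.63). Its day 1 call was lost without WT day 1 replicate 2 (adjusted p = 0.096) or Fn3nc* day 1 replicate 1 (adjusted p = 0.21), and its day 6 value on the log2(FPKM + 1) scale was -0.38 and not called. SDC4 and GPC4 separated late: SDC4 was -1.34 on day 4 and -1.52 on day 6 after 0.25 and -0.27 on days 1 and 2, which were not called, and GPC4 was called on day 6 alone (-0.81, SE 0.11, adjusted p = 2.69e-05).

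The members higher in Fn3nc* cells were the neighbours GPC6 and GPC5, both on day 2. GPC6 had 30.2 and 28.6 CPM in Fn3nc* cells and 18.8 and 19.0 CPM in WT cells (0.64, SE 0.08, adjusted p = 1.88e-05). GPC5 had 1.58 and 1.49 CPM in Fn3nc* cells and 0.788 and 1.03 CPM in WT cells (0.76, SE 0.27, adjusted p = 0.0405), a call that was lost under DESeq2 (adjusted p = 0.17) and without any of the 4 libraries of that day. GPC3 and GPC4, the neighbours on the X chromosome, had unlike values on day 2, -0.56 (SE 0.10) and -0.09 (SE 0.11). SDC2 was not called between the lines on any day. Its libraries overlapped on days 2, 4 and 6, and on day 1 it had 55.4 and 52.4 CPM in Fn3nc* cells and 79.1 and 68.5 CPM in WT cells (-0.45, adjusted p = 0.00322), short of the threshold of size.

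**Figure D4:**
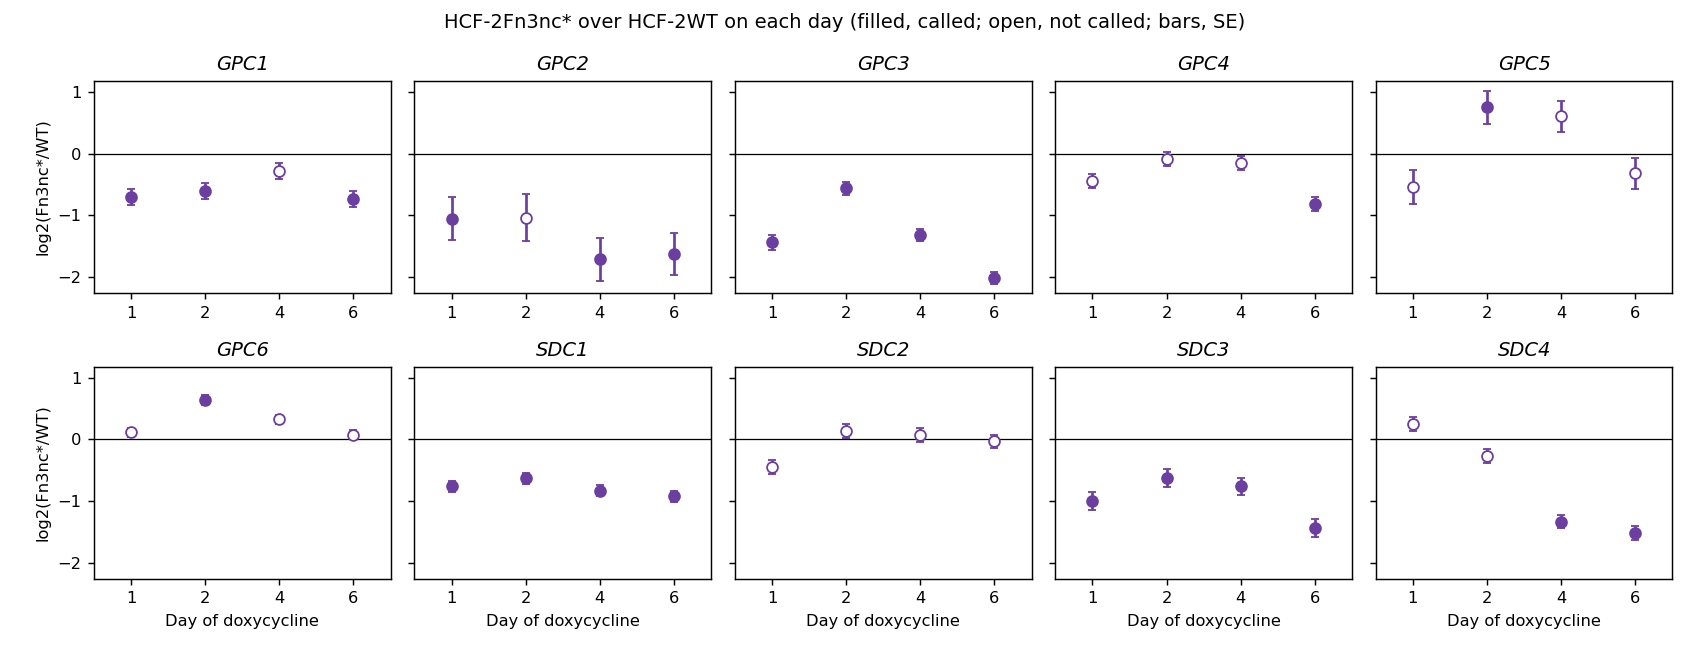
Log2 difference of HCF-2Fn3nc* over HCF-2WT cells by day of doxycycline, 1 panel per member, with SE from a fit of 16 libraries, filled where called. SDC1, SDC3 and GPC3 are filled and below 0 on all 4 days, SDC4 drops from 0.25 on day 1 to -1.52 on day 6, and GPC6 is highest on day 2 at 0.64. The values of GPC3 chose the family.

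Over the 8 libraries of each line, the member whose log2 CPM followed GPC3 most closely, by the smaller of its coefficients in the 2 lines, was GPC6 (Pearson r of 0.98 in Fn3nc* and 0.95 in WT cells). In WT cells alone SDC4 had a larger coefficient. GPC4 followed with 0.81 and 0.89. SDC4 had -0.87 in Fn3nc* cells and 0.97 in WT cells, and SDC2 0.90 in Fn3nc* cells and 0.30 in WT cells. The 8 libraries of a line share their time course, so any gene that moves with time has a large coefficient here. Among 11719 genes ranked by the smaller of their coefficients in the 2 lines, MYO9A, an unconventional myosin, ASB13, TUB, TNFRSF19, a receptor of the TNF receptor family, and CMTM4 were most like GPC3, with coefficients from 0.98 to 0.99 in each line. Their day 6 over day 1 values were smaller than those of GPC3, at 0.51 to 1.17 in Fn3nc* cells and 0.47 to 0.76 in WT cells.

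The genes that build and use heparan sulfate were described from 9 lists, for day 6 over day 1 in each line. Values in brackets are log2 fold changes, and medians are of log2 fold changes, Fn3nc* before WT cells. The background in this comparison is 8.89% of all genes higher and 15.4% lower in Fn3nc* cells, and 13.2% higher and 8.04% lower in WT cells. In Fn3nc* cells all of it rests on the day 1 pair that stood apart. For day 6 over day 2 in that line, edgeR called 1 gene higher among the other proteoglycan cores, 1 lower among the cytoplasmic partners, 1 lower among the ligands and 0 in the other 6 lists, where 1 to 11 genes per list had an unadjusted p under 0.05 (other tools were not counted for lists in that comparison).

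The chain starts from a sugar linker on the core protein, shared with chondroitin sulfate, and is then extended by exostosins. Of 9 tested genes of this step, 4 rose and 0 fell in Fn3nc* cells, and 0 rose and 1 fell in WT cells (list medians 0.44 and -0.01, against 0.00 and -0.01 over all genes). B3GALT6, which adds the galactose before the last linker sugar, had 55.3 and 63.7 CPM on day 6 against 32.6 and 31.6 CPM on day 1 in Fn3nc* cells (0.85, SE 0.09, adjusted p = 3.91e-05). EXTL3, which begins the heparan sulfate chain, XYLT2, which attaches the xylose, and FAM20B, which phosphorylates that xylose, rose by 0.58, 0.58 and 0.54. B4GALT7, which adds the galactose next to the xylose, fell in WT cells (-0.58, SE 0.11, adjusted p = 0.00223). The calls of XYLT2 and B4GALT7 were lost by limma on log2(FPKM + 1) and on log2(FPKM + 0.1). The day 6 response of 5 genes (B4GALT7, B3GALT6, EXT1, EXT2 and FAM20B) was higher in Fn3nc* than in WT cells by the test of the difference, where the background for higher is 16.1%. From day 2, B4GALT7 (0.69) and B3GALT6 (0.49) were still called, and EXT1 (0.13), EXT2 (0.06) and FAM20B (-0.12) were not. EXT1 and EXT2, the polymerases, are named after their values were seen.

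Chains are next modified by deacetylation, epimerisation and sulfation. Of 10 tested genes, 3 rose and 0 fell in Fn3nc* cells and 0 were called in WT cells (medians 0.38 and 0.13), where 6 had an unadjusted p under 0.05 and DESeq2 and limma also called 0. The Fn3nc* count was 5 without either day 4 library of that line. GLCE, the epimerase, had 103 and 116 CPM on day 6 against 62.7 and 58.9 CPM on day 1 in Fn3nc* cells (0.82, SE 0.09, adjusted p = 6.11e-05). In WT cells its value was 0.01 (SE 0.08), and the difference of the responses was 0.82 (SE 0.13, adjusted p = 1.41e-04), against 0.29 (SE 0.13, adjusted p = 0.108) from day 2. HS6ST3, a sulfotransferase, and NDST2, which deacetylates and sulfates the chain, rose by 0.75 and 0.73 in Fn3nc* cells.

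Of 12 tested genes that trim the chains or release the core, 1 rose and 1 fell in Fn3nc* cells, and 4 rose and 1 fell in WT cells (medians 0.25 and 0.32). By limma on log2(FPKM + 1), or with the filter on 2 libraries, 2 rose in WT cells. SULF1, an extracellular sulfatase that removes sulfate groups from the chains, had a log2 fold change of 0.03 (SE 0.17) in Fn3nc* cells and of 1.51 (SE 0.20, adjusted p = 1.91e-04) in WT cells, where it had 11.0 and 9.27 CPM on day 6 against 3.39 and 3.63 CPM on day 1. FURIN, a convertase able to cleave GPC3, rose by 0.60 (SE 0.09) in WT cells, and PCSK7, a relative of it, fell (-0.73, SE 0.15). The calls of FURIN and PCSK7 were lost by limma on log2(FPKM + 1) and on log2(FPKM + 0.1). MMP14, a membrane protease able to shed syndecans, fell in Fn3nc* cells (-2.62, SE 0.35) and rose in WT cells (1.25, SE 0.31). NOTUM, a secreted Wnt deacylase once described as cutting glypican anchors, rose in WT cells (2.74, SE 0.44). MMP14 and NOTUM had mean counts of 35 and 13 per library and are named after their values were seen. GPLD1, a phospholipase of such anchors, was called higher in Fn3nc* cells (0.56, SE 0.14), a call lost in 4 of 16 alternatives: DESeq2, limma on both scales and without Fn3nc* day 1 replicate 1. The WT call of MMP14 was lost by limma on log2(FPKM + 1) and without WT day 1 replicate 2 or day 6 replicate 2.

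Among 8 genes that supply sugar and sulfate donors, 1 rose in Fn3nc* cells and 2 fell in WT cells. SLC35B2, the Golgi transporter of the sulfate donor, moved in opposite directions: it had 37.6 and 39.7 CPM on day 6 against 24.0 and 26.2 CPM on day 1 in Fn3nc* cells (0.59, SE 0.07), and 23.1 and 24.2 CPM against 38.0 and 38.1 CPM in WT cells (-0.71, SE 0.10). The difference was 1.31 (SE 0.12, adjusted p = 8.65e-07), opposite in sign to that of SDC4. SLC35D1, a transporter of nucleotide sugars, fell in WT cells (-0.81, SE 0.09). Of 14 tested genes of chondroitin sulfate synthesis, 3 rose and 1 fell in each line. UST, a sulfotransferase, rose in both (0.77 in Fn3nc* and 0.58 in WT cells), as did CHSY3 (1.13 and 1.31), a synthase named after its values were seen. The Fn3nc* call of UST was lost by limma on both FPKM scales. CHST12 rose in Fn3nc* cells (0.86) and CHST15 in WT cells (0.76). CSGALNACT2, at -0.51 in Fn3nc* cells, lay just past the threshold of size and lost its call in 12 of 16 alternatives, 5 of them the omission of a library (any of day 1 replicate 1, day 2 replicate 2, day 4 replicate 1, day 4 replicate 2 and day 6 replicate 1 of that line). CHPF2, at -0.54 in WT cells, lost its call in 3 of 16, among them without WT day 1 replicate 2.

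Of 13 other proteoglycan cores tested, 8 rose and 1 fell in Fn3nc* cells and 8 rose and 0 fell in WT cells (medians 0.63 and 0.64). The WT count was 5 without WT day 1 replicate 1 and 2 by limma on log2(FPKM + 1). AGRN, the basement membrane agrin, COL18A1, the precursor of endostatin, and CSPG5, a neural chondroitin sulfate proteoglycan, were called higher in both. AGRN had 125 and 126 CPM on day 6 against 73.8 and 77.1 CPM on day 1 in Fn3nc* cells (0.70, SE 0.13), and its value was 0.54 (SE 0.16) in WT cells, a call lost in 5 of 16 alternatives, among them DESeq2 and the omission of WT day 1 replicate 1 or day 6 replicate 2. HSPG2, the basement membrane proteoglycan perlecan, was at 0.33 (SE 0.14, adjusted p = 0.0873) in Fn3nc* cells, and in WT cells it had 67.4 and 75.4 CPM on day 6 against 15.5 and 25.3 CPM on day 1 (1.79, SE 0.22, adjusted p = 1.20e-04). SPOCK1 (1.06) and CSPG4 (0.89) also rose in WT cells. The WT calls of SPOCK1 and COL18A1 were lost by limma on both FPKM scales. TGFBR3, the co-receptor betaglycan, rose in Fn3nc* cells (0.74, SE 0.06). NRP1, a co-receptor for VEGF and semaphorins, had 117 and 117 CPM on day 6 against 68.5 and 68.0 CPM on day 1 in Fn3nc* cells (0.74, SE 0.06), and -0.46 (SE 0.08) in WT cells, just under the threshold of size.

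Of 11 cytoplasmic partners of syndecans tested, 1 fell in Fn3nc* cells and 2 rose in WT cells. The same gene, SDCBP2 or syntenin-2, a PDZ protein, accounted for a call in each line, at -2.25 (SE 0.21) in Fn3nc* and 1.52 (SE 0.33) in WT cells, from a mean count of 45, and it is named after its values were seen. SRC, a tyrosine kinase that acts with SDC4, was called higher in WT cells (0.56, SE 0.12), though not by limma or without WT day 1 replicate 1.

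Of 16 tested ligands, 6 rose and 3 fell in Fn3nc* cells, and 9 rose and 0 fell in WT cells (medians 0.11 and 0.60). The WT count of higher genes was 5 by limma on log2(FPKM + 1). HBEGF, a growth factor that binds the EGF receptor together with heparan sulfate, had 11.2 and 12.9 CPM on day 6 against 35.7 and 32.8 CPM on day 1 in Fn3nc* cells (-1.54, SE 0.09, adjusted p = 9.09e-07). WNT11 fell in Fn3nc* cells (-1.19, SE 0.19) and rose in WT cells (1.53, SE 0.20), and MDK, the heparin-binding midkine, likewise fell (-0.71, SE 0.08) and rose (0.58, SE 0.13), the rise being lost without WT day 1 replicate 1 or day 6 replicate 1. WNT5A (0.92) and SLIT2 (0.62) rose in Fn3nc* cells and WNT5B in both (0.77 and 0.62). In WT cells PDGFA rose by 1.34 and VEGFA by 0.69.

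Of 28 receptors that act with glypicans or syndecans, 9 rose and 0 fell in Fn3nc* cells, and 6 rose and 1 fell in WT cells (medians 0.40 and 0.23). LRP1, an endocytic receptor to which GPC3 has been linked, rose in both, with 17.6 and 18.6 CPM on day 6 against 8.85 and 9.94 CPM on day 1 in Fn3nc* cells (0.91, SE 0.11), and 44.3 and 44.3 CPM against 13.2 and 19.1 CPM in WT cells (1.44, SE 0.17). FZD9, a frizzled receptor of Wnt ligands, also rose in both (1.42 and 0.83). FZD4, another frizzled, and LRRTM4, a synaptic protein that binds GPC4, rose in Fn3nc* cells (1.11 and 1.04). FGFR4 (1.15) and PTPRS, a phosphatase that binds heparan and chondroitin sulfate (0.82), rose in WT cells, and IGF2R fell there (-0.56), though not by limma or without WT day 1 replicate 2. LRP1 was not called in either line by limma.

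**Figure D5:**
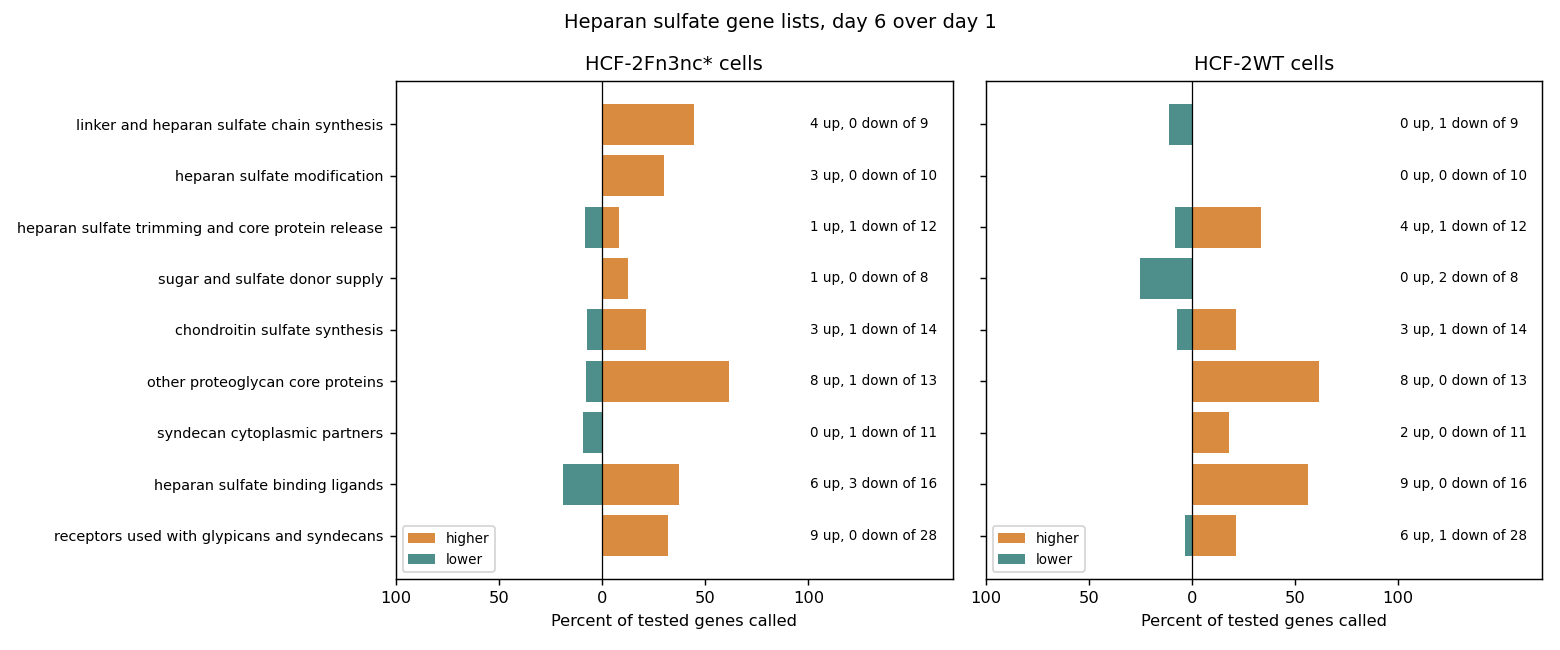
Percent of the tested genes of each list called higher (bars to the right) or lower (bars to the left) for day 6 over day 1, with HCF-2Fn3nc* cells on the left, HCF-2WT cells on the right and the counts printed beside the bars. Chain synthesis and modification have 7 of their 19 genes higher in Fn3nc* cells and 0 in WT cells, and other proteoglycan cores have 8 of 13 higher in each line. Over all genes tested, 8.89% were higher in Fn3nc* cells and 13.2% in WT cells. The Fn3nc* counts rest on the day 1 pair that stood apart. For day 6 over day 2 in that line, 0 genes of chain synthesis or modification were called.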

How the data were processed

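RNA of 16 samples, extracted together, was made into poly(A) libraries by the authors (NEXTflex qRNA-seq kit) and read as 125-nucleotide single ends (HiSeq 2500). The authors used STAR with GRCh37 and RSEM 1.3.0. Their deposited files give expected counts, in which RSEM divides reads that match several genes, and FPKM values that the authors took from the same RSEM run. The sources do not say whether molecular labels or strand were used.

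Samples were grouped by the cell line and day in their labels. Expected counts were rounded, and a gene was kept if any of 16 libraries had an FPKM above 1. TMM-scaled counts were tested with edgeR 4.0.16 (R 4.3.3, quasi-likelihood), with Benjamini-Hochberg adjustment over all 18925 genes. Each line was fitted on its own for days, and all 16 libraries together for line differences. A call needed an adjusted p under 0.05 and, except for the response difference, a log2 fold change beyond 0.5. DESeq2 1.42.0, limma 3.58.1 on log2(FPKM + 1) or log2(FPKM + 0.1), other scaling and filters, a replicate block and the omission of each library were alternatives. Principal components and correlations used log2 CPM with a prior count of 2. The scripts were tested on simulated data.

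The members and lists were chosen with earlier results of these data known. Named genes were all members, HCFC2, the 5 genes most like GPC3 and, per list and line, up to 4 called genes with the largest change in the more frequent direction and up to 2 in the other (mean count of at least 100).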

Additional observations from a re-analysis of the deposited data

Results flagged for a closer look

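For 59 members and named genes, the day 6 over day 1 response was tested for a difference between the cell lines. Of these, 31 differed at an adjusted p under 0.05 (edgeR, 16 libraries), where 36.1% of all genes did. Among the 31, 30 were named because they were called for day 6 over day 1 within a line. Those changes enter the difference tested here, so the 31 are not independent of how the genes were named. All values below are log2 differences, Fn3nc* minus WT.

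SDC4 was the 1 member among them, at -1.76, with -0.73 in Fn3nc* cells and 1.05 in WT cells. SULF1, the sulfatase, differed by -1.47. In donor supply, SLC35B2 (1.31) and SLC35D1 (1.00) differed. Among other proteoglycan cores, the differences were those of NRP1 (1.22), TGFBR3 (0.46), HSPG2 (-1.45) and SPOCK1 (-0.80). Among the ligands, the differences were those of WNT5A (1.14), SLIT2 (0.83), HBEGF (-1.82), WNT11 (-2.71), PDGFA (-1.30), VEGFA (-0.58) and MDK (-1.28). Among the receptors, the differences were those of FZD4 (0.64), LRRTM4 (0.83) and FGFR4 (-0.95). Among HEK-293 and fibroblast markers, the differences were those of KRT8 (-1.12), INA (-0.78), NEFL (-1.07) and COL1A1 (-1.85). Genes of chain synthesis and modification that differed were B3GALT6 (0.87), B4GALT7 (0.92), FAM20B (0.37), GLCE (0.82) and NDST2 (0.43). In chondroitin sulfate synthesis they were CHST12 (0.60), CSGALNACT2 (-0.75), CHST15 (-0.59) and CHPF2 (0.47). In Fn3nc* cells each of these responses uses the day 1 pair that stood apart. From day 2, which leaves that pair out, 21 of the 30 named genes other than SDC4 were called with the same sign and 9 were not called: FAM20B, GLCE, NDST2, CHST12, CSGALNACT2, TGFBR3, FZD4, LRRTM4 and COL1A1. SPOCK1 had the opposite sign by limma on both FPKM scales. Of 24 alternatives, the day 2 reference among them, NDST2 lost its call in 15, CHST12 in 12, CHPF2 in 9, FAM20B in 5 and SPOCK1 in 4. For NDST2 and CHST12 these included DESeq2, the replicate block and limma on both FPKM scales.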

How the results depend on the processing

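With 2 libraries per group, GPC5 (19 to 48 counts) and GPC2 (15 to 90 counts) are the least precise members, and day 1 follows induction. The added contrast from day 2 was chosen after seeing the data, and the cause of the changes below was not tested. Of 2467 alternative values for single members and comparisons, 2274 kept their direction and side of the threshold, 70 lost a call, 60 gained one, 8 moved in size and 55 changed sign. SDC4 kept its response difference in all 24 alternatives (-1.81 to -1.25). Of 68 day 6 over day 1 calls of named list genes, 45 held under every alternative. Of the others, 13 were lost by limma only and 10 were lost on leaving out a library.

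Sign changes were as follows. The response difference from day 2 was -1.08 for GPC5, -0.17 for SDC2, -0.12 for FAM20B, -0.065 for LRRTM4 and -0.095 for TGFBR3. By limma on log2(FPKM + 1) and log2(FPKM + 0.1), it was 0.014 and 0.10 for GPC2, -0.049 and -0.0018 for GPC5, 0.029 and 0.020 for GPC6, 0.21 and 0.25 for SDC1, and 0.10 and 0.19 for SPOCK1. On the same scales the line difference was 0.056 and 0.068 for GPC1 on day 4, -0.032 and -0.033 for GPC5 on day 4, and 0.018 and 0.018 for SDC2 on day 6. The day 2 change was -0.066 and -0.084 for GPC1 in Fn3nc* cells, and 0.024 and 0.024 for SDC2 and 0.13 and 0.16 for SDC3 in WT cells, and SDC3 had -0.030 and -0.036 for day 6 over day 2 in Fn3nc* cells. Without a filter the response difference of GPC1 was 0.0062, and in WT cells SDC1 had 0.0094 on day 2 and SDC2 -0.025 on day 6.

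Leaving out 1 library turned the sign in these ranges. In Fn3nc* cells, GPC1 had -0.12 to 0.19 and GPC2 -0.61 to 0.43 on day 2, and GPC2 -0.32 to 0.72 on day 4 and -0.040 to 0.997 on day 6. For day 6 over day 2 there, SDC2 had -0.21 to 0.0041 and SDC3 -0.033 to 0.12. In WT cells on day 2, GPC2 had -0.47 to 0.057, GPC6 -0.092 to 0.011, SDC1 -0.039 to 0.023, SDC2 -0.14 to 0.063 and SDC3 -0.34 to 0.17. On day 4 there, GPC1 had -0.27 to 0.078, SDC2 -0.055 to 0.27 and SDC3 -0.041 to 0.47. SDC2 had -0.075 to 0.12 on day 6 and -0.016 to 0.15 for day 6 over day 2 in WT cells. Between the lines it had -0.10 to 0.24 on day 4 and -0.15 to 0.072 on day 6. The response difference was -0.096 to 0.041 for GPC1, -1.005 to 0.037 for GPC2 and -0.090 to 0.020 for GPC6.

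For Fn3nc* cells, the day 2 count of 2 was 1 under DESeq2 and 1 with a filter on 2 libraries, and the day 4 count of 3 was 5 with DESeq2 size factors, 5 without a filter and 5 in 1 fit of 16 libraries. For WT cells, the day 6 count of 6 was 3 by limma on log2(FPKM + 1) and 3 on log2(FPKM + 0.1), and the count of 5 for day 6 over day 2 was 2 on each of these scales. The day 1 count of 5 between the lines was 3 on both. The response difference, called for 1 member, was called for 2 without a filter, 2 with a filter on 2 libraries and 5 from day 2. Leaving out 1 library gave 0 to 4 members for Fn3nc* day 2, 3 to 5 for day 4 and 2 to 3 for day 6, 3 to 6 for WT day 6 and 3 to 6 for WT day 6 over day 2. It gave 4 to 6 between the lines on days 1 and 2, 5 on day 4 and 7 on day 6, and 1 to 4 for the response difference, the 4 without WT day 1 replicate 2 (GPC4, SDC2, SDC3 and SDC4).

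Replicate numbers did not pair the samples: deviations of same-numbered libraries correlated at -0.22 to 0.11. With the replicate block the count was 2 for Fn3nc* day 6 and 5 between the lines on day 2, GPC5 losing its call in both (adjusted p = 0.068 and 0.05), and the other counts were as without it. Scaling by DESeq2 size factors moved the median of all genes by at most 0.02.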
